A study of Solanum lycopersicum with 18 samples.

Results

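The genes described here are the most abundant transcripts of primed tomato seeds, members chosen by their measured mock level, a mean of 1000 TPM or more over the 9 mock-primed libraries of the deposited table. TPM, the deposited unit, gives each gene's transcripts per length as a share of 1 library, so levels can be set side by side between genes. The rule took 127 of the 33976 genes, 0.374% of the table. The study sequenced RNA from mature seeds of 3 tomato genotypes after osmopriming, a controlled imbibition in polyethylene glycol that stops short of germination. The 6 groups were MeJA-primed Stupicke, Criollo and Micro-Tom seeds, primed with 2 mM methyl jasmonate (MeJA), and mock-primed Stupicke, Criollo and Micro-Tom seeds, primed with water in place of the elicitor. Stupicke is a large-fruit cultivar, Criollo a small-fruit cultivar and Micro-Tom a dwarf reference cultivar, each unmodified and each represented by seed of 1 production. All groups shared the polyethylene glycol solution of -1 MPa, 48 h in the dark at 20 °C and, by the labels, redrying for 48 h at 43% relative humidity before RNA extraction, and each had 3 biological replicates of 30 pooled seeds, 18 libraries in all. Whole seeds were extracted, so fewer cells of a type and less RNA per cell cannot be told apart.

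Late embryogenesis abundant (LEA) proteins accumulate while a seed matures and dries, and are known for protecting cells during desiccation. Vicilin is a globulin that stores nitrogen in the seed, and oleosins coat the oil bodies that store its lipids. Messages for such proteins are made during maturation, persist in the dry seed and decline on the way to germination, whereas ribosomal proteins and elongation factors belong to the translation machinery that a seed rebuilds on imbibition. Jasmonates are hormones of wounding and defence, and non-specific lipid-transfer proteins (nsLTPs) and pathogenesis-related (PR) proteins are counted among plant defence proteins.

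Library totals were close to each other, between 18807931 and 20560389 estimated reads. Micro-Tom mock replicate 3 stood apart from its group. Over the members, the median coefficient of variation among replicates was 21.0% in Micro-Tom mock and 3.93% to 8.87% in the other groups. In that library the members stood at a median of 1.28 times the mean of the other Micro-Tom mock libraries, against 0.692 times over all genes with a mock mean of at least 1 TPM, so results that rest on it are given with and without it. The Micro-Tom libraries also differed in the lengths behind their TPM values. The ratio of estimated reads to TPM in the shortest eighth of genes, relative to the longest eighth, was 1.35 to 1.45 times that of the Stupicke and Criollo mean in Micro-Tom libraries and 0.941 to 1.07 times in Stupicke and Criollo libraries, so a difference in library or alignment and a difference in genotype cannot be told apart in comparisons with Micro-Tom. Fruit ripening genes, looked up by gene ID as markers of adhering fruit tissue, summed to 24.2 to 46.0 TPM in MeJA-primed and 20.5 to 39.3 TPM in mock-primed libraries over 6 genes, with the polygalacturonase gene PG2a at 0 in all of them. The 2 chlorophyll a-b binding genes annotated summed to 1.42 to 3.70 TPM in MeJA-primed and 2.55 to 8.36 TPM in mock-primed libraries.

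The copies of the study's gene and protein lists used here, of which 1 was shortened, describe 57 of the 127 members. The other 70 carry no description in them, so the class sizes below hold for these copies only. Of the 57, 33 are described only in the lists of MeJA-responsive genes, which were drawn from these same libraries, so class counts below are not independent evidence of a direction. The largest described class was translation, with 27 members, mostly ribosomal proteins. Seed maturation gave 5 LEA proteins, 3 oleosins and 1 vicilin, and defence gave 2 nsLTPs and the PR protein STH-2-like. A chaperone (HSC2-like heat shock protein), 3 genes of the ubiquitin class, 10 genes of other functions and 4 described as unknown proteins made up the rest. The members were mostly short transcripts. Of the 127, 105 were shorter than the median of the 18670 genes with a mock mean of 1 TPM or more, as read from the ratio of estimated reads to TPM, and their median length was 0.458 times that of the median gene.

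The threshold fell in a dense part of the distribution. Just inside it stood Solyc08g006890.3.1 (1005 TPM), ribosomal protein L7a (1004 TPM) and Solyc08g005960.2.1 (1003 TPM), and just outside it ribosomal protein S24 (998 TPM), ribosomal protein L35a-3 (993 TPM) and 2-oxoglutarate-dependent dioxygenase 2 (983 TPM). Only 56 members reached 1000 TPM in each of the 9 mock libraries, and 47 genes did so in all 18 libraries.

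The members held between 22.6% and 32.6% of a library's TPM. In Stupicke they held 29.5%, 32.6% and 30.3% in MeJA-primed libraries against 29.7%, 28.9% and 31.6% in mock-primed libraries, ranges that overlapped. In Criollo they held 26.0%, 28.3% and 26.2% in MeJA-primed libraries against 24.2%, 23.5% and 24.6% in mock-primed libraries, and the groups did not overlap. In Micro-Tom they held 25.7%, 23.9% and 26.0% in MeJA-primed libraries against 24.0%, 22.6% and 28.5% in mock-primed libraries, where the highest value was replicate 3. Since mock levels chose the members, no test was run on these shares. Counted in estimated reads rather than TPM, the mean share was 21.0% in MeJA-primed and 20.9% in mock-primed Stupicke, 17.9% and 16.7% in Criollo, and 17.0% and 17.9% in Micro-Tom.

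**Figure D1:**
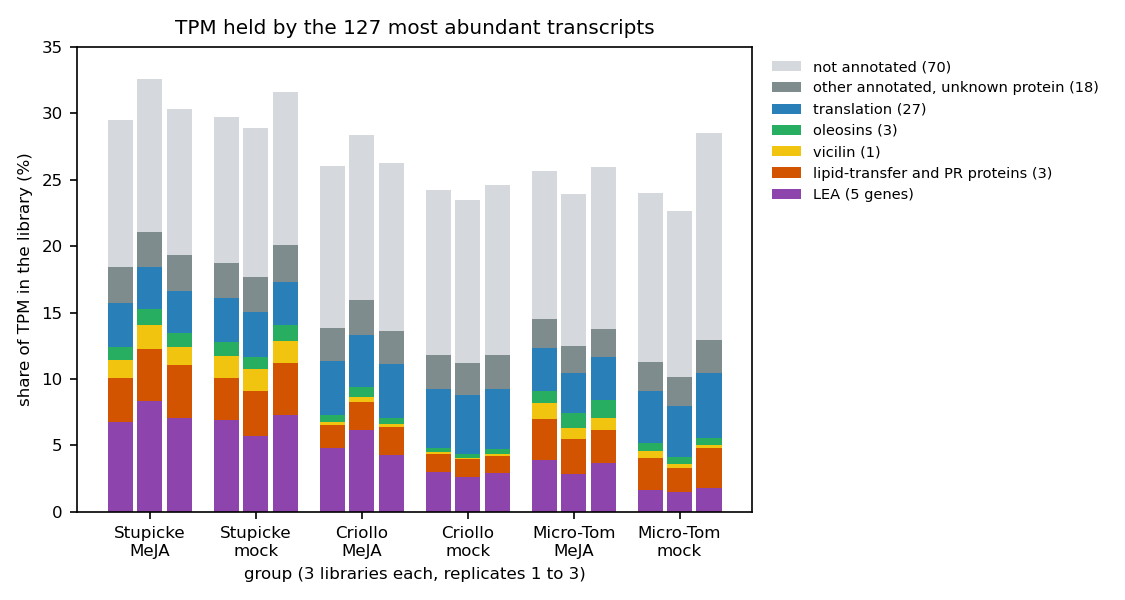
Share of each library's TPM, in percent, held by the 127 members, stacked by class, with 1 bar per library and 3 libraries per group. LEA proteins (lowest segment) averaged 7.37% in MeJA-primed and 6.62% in mock-primed Stupicke, 5.07% and 2.82% in Criollo, and 3.47% and 1.62% in Micro-Tom.

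The 5 LEA members held 5.07% ± 0.989 in MeJA-primed and 2.82% ± 0.216 in mock-primed Criollo, and 3.47% ± 0.546 in MeJA-primed and 1.62% ± 0.165 in mock-primed Micro-Tom, with no overlap between libraries (SD, n = 3 each). In Stupicke the same genes held 7.37% ± 0.845 in MeJA-primed and 6.62% ± 0.840 in mock-primed seeds (SD, n = 3 each), within the spread of the replicates. The 27 translation members held less in Criollo, with 4.03% ± 0.101 in MeJA-primed and 4.45% ± 0.0548 in mock-primed seeds, and in Micro-Tom, with 3.15% ± 0.0787 in MeJA-primed and 4.21% ± 0.598 in mock-primed seeds (SD, n = 3 each). Shares of a fixed total are linked, so a class that takes more leaves less for the others.

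The most abundant member was Solyc10g078770.2.1, an 11 kDa LEA protein, which led every library except the 3 of mock-primed Micro-Tom. There it ranked 5, 5 and 7, behind the undescribed Solyc01g099770.3.1, which led replicates 1 and 2, and the nsLTP Solyc01g090360.3.1, which led replicate 3. Its mock levels were 36143, 30696 and 40603 TPM in Stupicke, 13722, 11849 and 12719 TPM in Criollo, and 6536, 5592 and 5585 TPM in Micro-Tom. The 3 genotypes did not overlap, and Stupicke stood highest.

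Vicilin (Solyc09g082340.2.1) had the steepest order among the described members. It stood at 16344, 16321 and 16647 TPM in mock-primed Stupicke, 1538, 979 and 1376 TPM in mock-primed Criollo and 4699, 2910 and 1796 TPM in mock-primed Micro-Tom, a ratio of 12.7 between the highest and the lowest genotype mean. The LEA gene Solyc06g048840.3.1 spanned a ratio of 11.7, with 16087, 10552 and 13066 TPM in mock-primed Stupicke and 1451, 760 and 1194 TPM in mock-primed Micro-Tom. The nsLTP Solyc01g090360.3.1 ran in another order, with 9613, 7565 and 14251 TPM in mock-primed Micro-Tom, 3890, 5532 and 5676 TPM in mock-primed Stupicke and 1594, 1643 and 1301 TPM in mock-primed Criollo, a ratio of 6.92. Its neighbour in numbering, the nsLTP Solyc01g090350.3.1, was highest in Stupicke at 17892, 18512 and 21455 TPM, while Criollo (9682, 10146 and 9932 TPM) and Micro-Tom (10725, 8133 and 12491 TPM) overlapped. Reads that fit 2 similar genes are divided by estimation. How alike the sequences of these 2 nsLTPs are was not examined, so their separate levels may be less certain.

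Not all members depended on genotype. Solyc01g099770.3.1 stood at 9662 to 11265 TPM in mock-primed Stupicke, 10579 to 10819 TPM in mock-primed Criollo and 10236 to 11585 TPM in mock-primed Micro-Tom, a ratio of 1.06 between genotype means. Across the 127 members the median of this ratio was 1.63, it exceeded 2 in 35 members and 4 in 16, and it was below 1.25 in 12. The largest ratios belonged to 2 undescribed genes, Solyc10g075110.2.1 at 18.8, with 4189 to 5383 TPM in mock-primed Micro-Tom against 49 to 452 TPM in mock-primed Stupicke, and Solyc08g080480.3.1 at 18.3, with 2545 to 3408 TPM in mock-primed Stupicke against 121 to 225 TPM in mock-primed Criollo. The next among the undescribed members was Solyc12g006680.2.1 at 8.39, highest in Micro-Tom. These levels chose the members and are given as a description. On the TPM scale 31 members were highest in mock-primed Stupicke, 46 in Criollo and 50 in Micro-Tom, whereas on reads scaled by TMM, without a length term, the same counts were 35, 14 and 78. Without Micro-Tom mock replicate 3 the counts on the TPM scale were 33, 53 and 41, so Micro-Tom stood ahead of Criollo with that library and Criollo ahead of Micro-Tom without it.

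**Figure D2:**
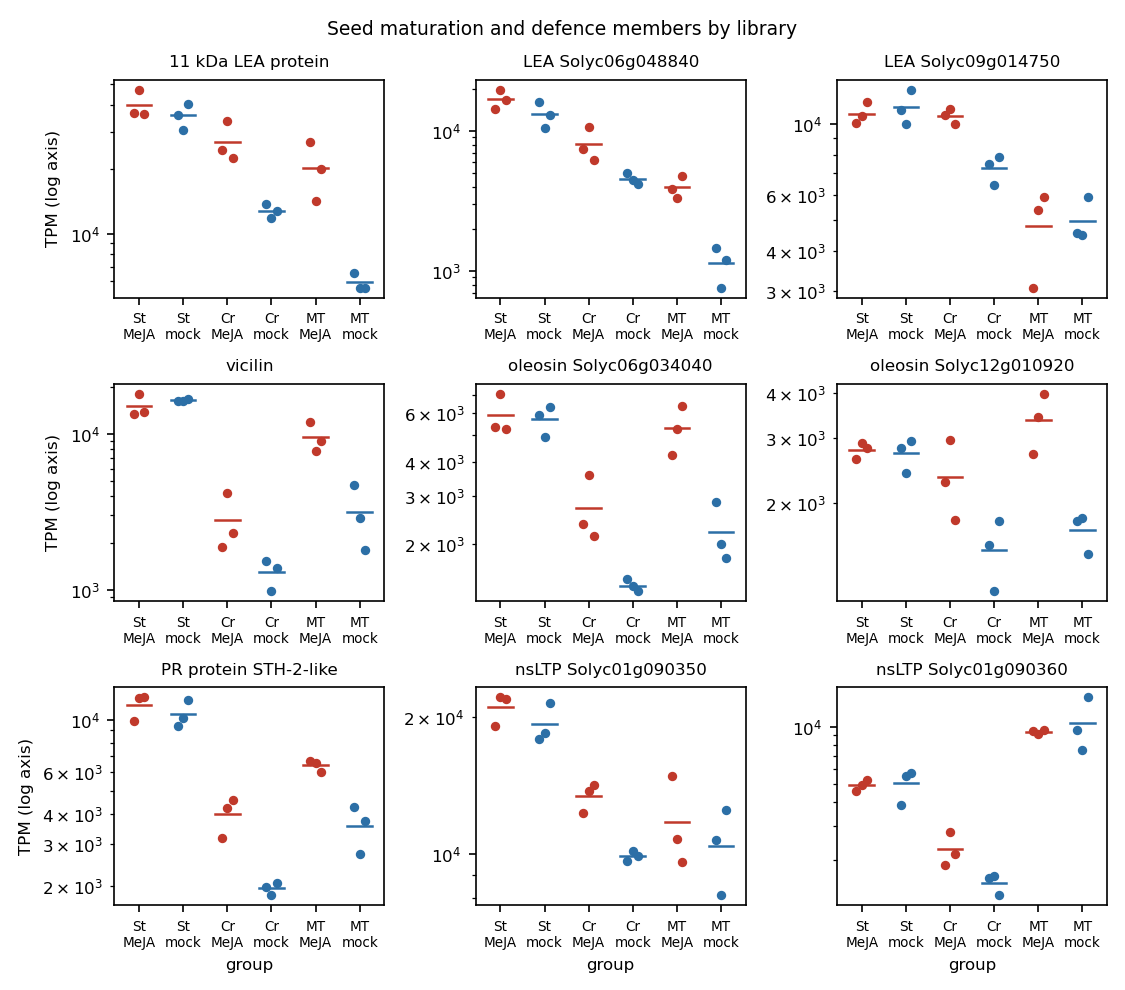
TPM on a log axis of 9 seed maturation and defence members in each library (points, 3 per group) with the group mean (line). St is Stupicke, Cr Criollo and MT Micro-Tom, with MeJA in red and mock in blue. The 11 kDa LEA protein, vicilin and the oleosin Solyc06g034040 lay higher in MeJA-primed than in mock-primed libraries of Criollo and Micro-Tom, without overlap, and overlapped in Stupicke.

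MeJA-primed and mock-primed seeds were then compared within each genotype to find which of the abundant transcripts responded to the elicitor, with edgeR's quasi-likelihood test fitted on all genes and adjusted p-values over all 19914 genes tested, called below 0.05. Among the seed maturation members, vicilin, 2 of 3 oleosins and 2 of 5 LEA proteins rose with MeJA in Criollo, and vicilin, 2 of 3 oleosins and 2 of 5 LEA proteins rose in Micro-Tom. The 3 LEA members not called had log2 fold changes above 0 in Criollo, and 2 of the 5 LEA members had values below 0 in Micro-Tom, the lowest at -0.30. Without Micro-Tom mock replicate 3 all 5 LEA members were above 0 in Micro-Tom, the lowest at 0.18. In Criollo 8 of the 127 members rose (6.30%, against a background of 3.19% of all genes tested) and 0 fell (1.22% of all genes). In Micro-Tom 7 members rose (5.51%, against 7.98% of all genes) and 26 fell (20.5%, against 7.64%). In Stupicke 0 members were called, where 1.45% of all genes rose and 0.11% fell. By edgeR 0 members had an unadjusted p below 0.05, against 1452 of the 19914 genes tested. DESeq2 and limma also called 0 members there.

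The 11 kDa LEA protein Solyc10g078770.2.1 stood at 24576, 33772 and 22670 TPM in MeJA-primed Criollo against 13722, 11849 and 12719 TPM in mock-primed Criollo, and at 26838, 14251 and 20062 TPM in MeJA-primed Micro-Tom against 6536, 5592 and 5585 TPM in mock-primed Micro-Tom. The lowest MeJA library lay above the highest mock library in both genotypes. Its log2 fold change was 1.22 (SE 0.29, edgeR adjusted p = 0.025) in Criollo and 1.73 (SE 0.30, edgeR adjusted p = 0.0013) in Micro-Tom. In Stupicke, with 36778, 47166 and 36411 TPM in MeJA-primed against 36143, 30696 and 40603 TPM in mock-primed seeds, the groups overlapped and the log2 fold change was 0.29 (95% interval -0.27 to 0.85).

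Vicilin showed the same layout. It stood at 1895, 4191 and 2329 TPM in MeJA-primed Criollo against 1538, 979 and 1376 TPM in mock-primed Criollo, and at 11883, 7778 and 9064 TPM in MeJA-primed Micro-Tom against 4699, 2910 and 1796 TPM in mock-primed Micro-Tom, with no overlap in either. The increase was 2.41-fold in Criollo (edgeR adjusted p = 0.030) and 3.02-fold in Micro-Tom (edgeR adjusted p = 0.0040). In Criollo vicilin was not called by limma on log2(TPM + 1), at a log2 fold change of 1.05, nor by edgeR with replicate number as a block. In Stupicke it stood at 13399, 18124 and 13908 TPM in MeJA-primed against 16344, 16321 and 16647 TPM in mock-primed seeds, a log2 fold change of -0.11 (95% interval -0.71 to 0.50).

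Of the 3 oleosins, Solyc06g034040.1.1 and Solyc12g010920.2.1 rose in both genotypes and Solyc03g112440.1.1 was called in neither. Solyc06g034040.1.1 stood at 2371, 3584 and 2145 TPM in MeJA-primed against 1486, 1405 and 1345 TPM in mock-primed Criollo, and at 4234, 5261 and 6376 TPM in MeJA-primed against 2854, 2006 and 1782 TPM in mock-primed Micro-Tom. All MeJA-primed libraries lay above the mock-primed ones. Its log2 fold change was 1.05 (SE 0.23, edgeR adjusted p = 0.014) in Criollo and 1.18 (SE 0.23, edgeR adjusted p = 0.0033) in Micro-Tom. Solyc12g010920.2.1 gave 0.81 in Criollo (edgeR adjusted p = 0.046) and 0.88 in Micro-Tom (edgeR adjusted p = 0.014). The undescribed Solyc12g098900.2.1 was the fifth gene called upregulated in both, by 1.02 in Criollo and 1.23 in Micro-Tom on the log2 scale. The 5 shared genes were 5 of the 8 that rose in Criollo and 5 of the 7 in Micro-Tom.

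The other genes called upregulated were called in 1 genotype. The PR protein STH-2-like (Solyc09g090970.4.1) stood at 3175, 4239 and 4594 TPM in MeJA-primed against 1982, 1832 and 2052 TPM in mock-primed Criollo, and its log2 fold change was 1.22 (SE 0.24, edgeR adjusted p = 0.0070). In Micro-Tom it had 6713, 6547 and 6008 TPM in MeJA-primed against 4274, 2724 and 3737 TPM in mock-primed seeds, also without overlap, at a log2 fold change of 0.66 (edgeR adjusted p = 0.069). The dehydrin Solyc02g084840.3.1, an LEA protein, rose by 0.90 in Criollo and gave 0.63 in Micro-Tom (edgeR adjusted p = 0.066). Sulfite oxidase, which turns sulfite into sulfate, rose by 0.59 in Criollo. In Micro-Tom the LEA gene Solyc06g048840.3.1 stood at 3822, 3307 and 4736 TPM in MeJA-primed against 1451, 760 and 1194 TPM in mock-primed seeds, a log2 fold change of 1.60 (SE 0.31, edgeR adjusted p = 0.0032), and in Criollo it gave 1.02 (edgeR adjusted p = 0.072). Cysteine proteinase 15A rose by 0.59 in Micro-Tom. Neither nsLTP was called in any genotype with all libraries. Without Micro-Tom mock replicate 3, both were called higher in Criollo, at 0.60 for Solyc01g090350.3.1 (edgeR adjusted p = 0.043) and 0.74 for Solyc01g090360.3.1 (edgeR adjusted p = 0.026), and STH-2-like (0.98) and the dehydrin (0.92) were called higher in Micro-Tom. In Micro-Tom the value of Solyc01g090360.3.1 was -0.32 with that library and 0.23 without it, not called in either case.

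**Figure D3:**
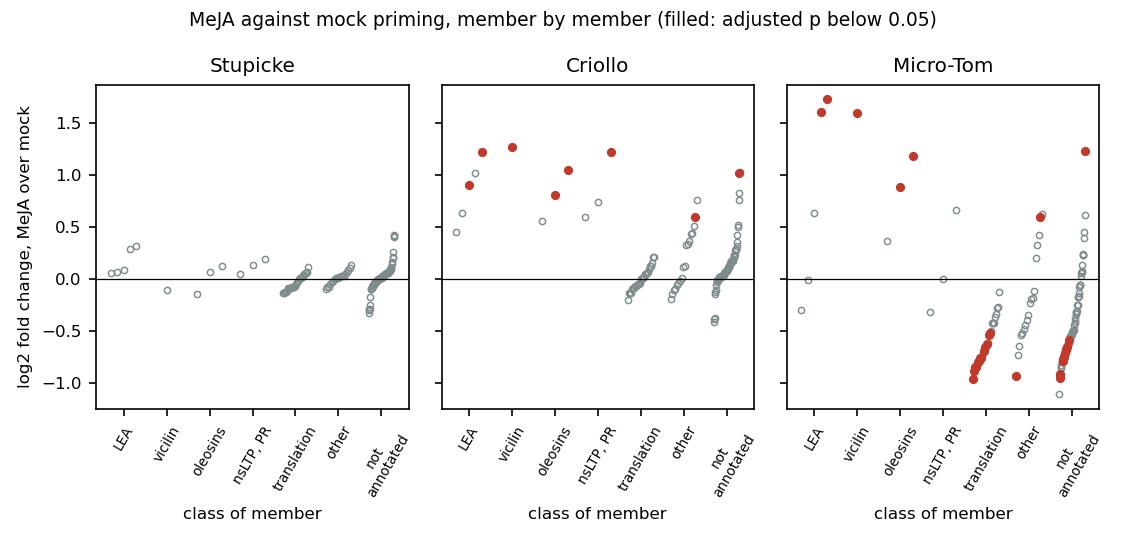
Log2 fold change of MeJA-primed over mock-primed seeds from the edgeR fit for all 127 members, by class, in each genotype (1 circle per gene, filled where the adjusted p was below 0.05). Filled circles above 0 number 8 in Criollo and 7 in Micro-Tom, filled circles below 0 number 26 in Micro-Tom, and Stupicke has 0 filled circles.

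The 10 members that rose in Criollo or Micro-Tom all had their highest mock mean in Stupicke, as had 31 of all 127 members. Mock levels entered both the choice of members and the MeJA changes, so this is a description. The median log2 fold change of the 10 was 1.02 in Criollo, 1.03 in Micro-Tom and 0.07 in Stupicke. The first pair of values is fixed in sign by how the genes were picked. A difference in MeJA response between genotypes was tested for each pair as an interaction. By edgeR 0 of the 127 members were called for Stupicke minus Criollo, Stupicke minus Micro-Tom or Criollo minus Micro-Tom. Of all genes 0.0301%, 0.447% and 0.0954% were called. In the same order 9, 41 and 46 members had an unadjusted p below 0.05, as did 1554, 3037 and 1802 of the 19914 genes tested. The median difference over the members was 0.47 for Stupicke minus Micro-Tom and 0.57 for Criollo minus Micro-Tom. Without Micro-Tom mock replicate 3 these medians were 0.10 and 0.17. DESeq2 called 5 members for Stupicke minus Micro-Tom, 0.787% higher and 3.15% lower, against 0.557% and 1.91% of all genes. Those lower were vicilin, 1 LEA protein, 1 oleosin and 1 undescribed gene, and the HSC2-like heat shock protein was higher. For the other pairs DESeq2 called 0. Vicilin had the smallest adjusted p, 0.10 by edgeR for Stupicke minus Micro-Tom, at a difference of -1.70 log2 units (95% interval -2.56 to -0.84), and for the 11 kDa LEA protein the same difference was -1.44 (95% interval -2.24 to -0.64). By edgeR the responses are therefore not shown to differ between genotypes at this threshold, and the 5 calls by DESeq2 depend on the test used.

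The wider maturation lists, which the study described mainly because their genes were MeJA-responsive in these libraries, can be read as counts only. Of 28 described LEA genes, 9 rose and 1 fell in Criollo, 13 rose and 1 fell in Micro-Tom, and 0 rose and 1 fell in Stupicke, with median log2 fold changes of 0.73, 0.58 and -0.11. The shares that rose were 32.1% in Criollo and 46.4% in Micro-Tom, against 24.3% and 36.6% of the 2182 tested genes of the same lists that fell in no class. Of 11 described oil body genes, 8 rose in Criollo, 6 in Micro-Tom and 1 in Stupicke, and 0 fell, shares of 72.7%, 54.5% and 9.09% against 24.3%, 36.6% and 11.2% of the genes in no class. Of 11 tested storage protein genes, 3 rose in Criollo, 5 in Micro-Tom and 2 in Stupicke, and 0 fell. Those were shares of 27.3%, 45.5% and 18.2%, against the same 24.3%, 36.6% and 11.2%. Over all genes tested the median log2 fold change was 0.01 in Criollo, -0.01 in Micro-Tom and -0.01 in Stupicke.

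The Criollo calls rested on few libraries. The count of 8 was 5 without MeJA replicate 1, 1 without MeJA replicate 2, and 2, 1 and 3 without mock replicates 1, 2 and 3 of Criollo, and it was 19, all higher, without Micro-Tom mock replicate 3, which entered the shared estimate of the spread. Those 19 were 15% of the members, against 5.73% of all genes called higher in the same fit. Over all genes 877 were called in Criollo with all libraries. That number was 522 and 371 without MeJA replicates 1 and 2 of Criollo. It was 446, 361 and 594 without mock replicates 1, 2 and 3 of Criollo. The PR protein STH-2-like was the only member called in Criollo whichever library was left out. In Micro-Tom the 11 kDa LEA protein, vicilin, the LEA gene Solyc06g048840.3.1, the oleosin Solyc06g034040.1.1, Solyc12g098900.2.1 and cysteine proteinase 15A were called whichever of the 18 libraries was left out.

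The 26 members that fell in Micro-Tom were 13 translation genes, 12 undescribed genes and the ubiquitin gene Solyc01g068045.1.1, and most of these calls moved with Micro-Tom mock replicate 3. The ribosomal protein S15a gene Solyc04g150158.1.1 stood at 907, 917 and 921 TPM in MeJA-primed against 1166, 1263 and 2035 TPM in mock-primed Micro-Tom, a log2 fold change of -0.96 (SE 0.27, edgeR adjusted p = 0.025). Ubiquitin stood at 941, 1021 and 1099 TPM in MeJA-primed against 1504, 1465 and 2136 TPM in mock-primed seeds, at -0.93 (SE 0.22, edgeR adjusted p = 0.012), and the undescribed Solyc06g008260.3.1 at 913, 905 and 1217 TPM against 1408, 1526 and 2114 TPM, at -0.92 (SE 0.23, edgeR adjusted p = 0.016). In each of these genes mock replicate 3 was the highest library. The groups did not overlap in them, which was a condition for naming them and does not describe the other lower calls.

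Without Micro-Tom mock replicate 3, 10 members fell and 10 rose in Micro-Tom. Each was 7.87% of the members, against 5.19% of all genes lower and 8.06% higher in that fit, so the distance between members and all genes in the share that fell was much smaller than the 20.5% against 7.64% with all libraries. With only the 6 Micro-Tom libraries in the fit 0 members fell and 4 rose (1.40% and 2.86% of all genes), and 0 fell at a minimum log2 fold change of 1. All 10 that fell were among the 26, 8 of them translation genes, and the 7 that rose with all libraries were still called. The median log2 fold change of the 27 translation members was -0.65 with that library and -0.19 without it, and that of all 127 members was -0.49 with it and -0.12 without it. Ribosomal proteins that did not share its high value included L6 (Solyc11g012110.2.1), with 1700, 1867 and 2043 TPM in MeJA-primed against 2604, 2629 and 2403 TPM in mock-primed Micro-Tom, and P0 (Solyc05g054580.3.1), with 1839, 2188 and 2382 TPM against 2892, 3235 and 2449 TPM. Their log2 fold changes were -0.54 (edgeR adjusted p = 0.0064) and -0.52 (edgeR adjusted p = 0.0096), and both were called whichever library was left out. Neither was called lower with only the 6 Micro-Tom libraries in the fit. L6 was chosen after its values were seen. In 21 of the 27 translation members replicate 3 was the highest of the Micro-Tom mock libraries. Other libraries also moved the count of 33 called members, to 13, 13 and 16 without MeJA replicates 1, 2 and 3 and to 73 and 76 without mock replicates 1 and 2 of Micro-Tom. Over all genes the calls moved as well, from 3110 to 1620, 1810 and 1835, and to 3965 and 4136, in the same order. The part of replicate 3's composition in the lower values of translation members in MeJA-primed Micro-Tom was not tested beyond leaving it out.

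**Figure D4:**
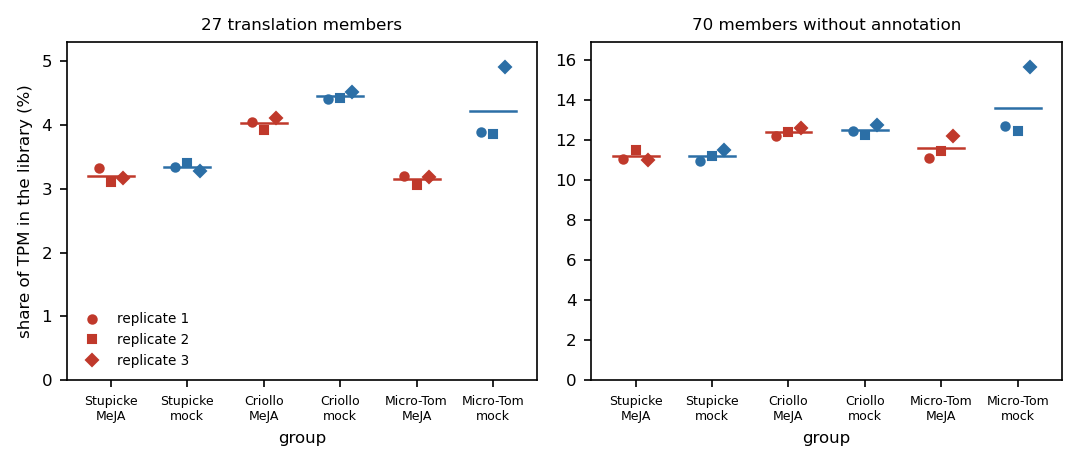
Share of each library's TPM, in percent, held by the 27 translation members (left) and the 70 members without a description (right), with replicates 1 to 3 as circle, square and diamond, and lines at group means, MeJA in red and mock in blue. Mock replicate 3 of Micro-Tom was the highest of the 18 libraries for translation members at 4.90%, against 3.89% and 3.85% in the other Micro-Tom mock libraries.

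In Stupicke and Criollo 0 translation members were called. Their median log2 fold change was -0.06 in Stupicke and 0.00 in Criollo by edgeR, and -0.09 and -0.16 by limma on log2(TPM + 1). The elongation factor 1-alpha gene Solyc11g150146.1.1, the most abundant translation member, had 2699, 2494 and 2602 TPM in MeJA-primed against 2733, 2849 and 2527 TPM in mock-primed Stupicke and 2933, 2687 and 2973 TPM against 3399, 3280 and 3453 TPM in Criollo. The Criollo groups did not overlap in TPM, and the edgeR log2 fold change there was -0.09. The TPM scale itself was displaced in Criollo, where the median gene stood at -0.12 log2 units in MeJA-primed relative to mock-primed seeds, and the edgeR value is relative to the TMM scaling instead.

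A rule on mock levels favours genes that happened to be high in mock libraries, and so favours lower values in MeJA. Choosing members instead by the mean of all 18 libraries gave 116 genes, 109 of them shared, of which 13 rose (11.2%) and 0 fell in Criollo, 13 rose (11.2%) and 15 fell (12.9%) in Micro-Tom, and 1 rose (0.862%) in Stupicke. Choosing them by the 9 MeJA-primed libraries gave 114 genes, 99 of them shared, of which 15 rose (13.2%) and 0 fell in Criollo, 16 rose (14%) and 14 fell (12.3%) in Micro-Tom, and 2 rose (1.75%) in Stupicke. Of all genes tested 3.19% rose in Criollo, 7.98% rose and 7.64% fell in Micro-Tom, and 1.45% rose in Stupicke. The median log2 fold change in Micro-Tom was -0.49 under the mock rule, -0.34 under the rule on all libraries and -0.28 under the MeJA rule.

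Genotypes were compared after MeJA priming, in libraries that the rule had not used. The choice still bears on these differences, because a member could pass through the mock level of 1 genotype. The mock mean reached 1000 TPM in all 3 genotypes for 72 members, in 2 for 39 and in 1 for 16, and the members that passed through the higher genotype of a pair were favoured to be higher there, so the counts and the differences of such genes are a description. Stupicke exceeded Criollo for vicilin, all 3 defence members, 2 of 3 oleosins and 2 of 5 LEA proteins. Of the 127 members, 20 were higher (15.7%, against 11% of all genes tested) and 7 lower (5.51%, against 11.4%) in Stupicke than in Criollo. They were higher for 34 (26.8%, against 21.7%) and lower for 18 (14.2%, against 22.5%) in Stupicke relative to Micro-Tom, and higher for 29 (22.8%, against 19.1%) and lower for 22 (17.3%, against 20.0%) in Criollo relative to Micro-Tom. The mock mean had reached the threshold in the higher genotype alone of the pair for 6 of the 20 and 3 of the 7, for 14 of the 34 and 11 of the 18, and for 10 of the 29 and 11 of the 22.

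Vicilin stood at 13399, 18124 and 13908 TPM in MeJA-primed Stupicke against 1895, 4191 and 2329 TPM in MeJA-primed Criollo, a log2 fold change of 2.56 (SE 0.33, edgeR adjusted p = 5.4e-05). It was also higher in Stupicke than in Micro-Tom, by 0.92 (edgeR adjusted p = 0.024), and lower in Criollo than in Micro-Tom, at a log2 fold change of -1.64 (edgeR adjusted p = 0.00076). By edgeR the order for vicilin after MeJA was therefore Stupicke, Micro-Tom and Criollo, with each neighbouring pair called. Limma on log2(TPM + 1) did not call Stupicke over Micro-Tom, at 0.67. Of 11 tested storage protein genes in the wider list, 4 were higher (36.4%, against 21.7% of all genes) and 4 lower (36.4%, against 22.5%) in Stupicke than in Micro-Tom. Their median log2 fold change was -0.985.

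All 3 defence members were higher in Stupicke than in Criollo. The PR protein STH-2-like stood at 9860, 12291 and 12390 TPM in MeJA-primed Stupicke, 3175, 4239 and 4594 TPM in MeJA-primed Criollo and 6713, 6547 and 6008 TPM in MeJA-primed Micro-Tom, without overlap. The log2 fold change was 1.64 for Stupicke over Criollo (SE 0.24, edgeR adjusted p = 0.00020) and 0.83 for Stupicke over Micro-Tom (edgeR adjusted p = 0.010). The nsLTP Solyc01g090360.3.1 was highest in Micro-Tom after MeJA too, with 4561, 4926 and 5259 TPM in Stupicke, 1867, 2803 and 2141 TPM in Criollo and 9480, 9135 and 9607 TPM in Micro-Tom, and all 3 pairs were called. The nsLTP Solyc01g090350.3.1 was higher in Stupicke than in Criollo by 0.81 (edgeR adjusted p = 0.031), and Criollo and Micro-Tom overlapped at a difference of -0.06.

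Among LEA proteins, 2 of 5 were higher in Stupicke than in Criollo, 4 of 5 were higher in Stupicke than in Micro-Tom and 0 were lower in either. Solyc06g048840.3.1 stood at 14354, 19657 and 16753 TPM in MeJA-primed Stupicke, 7480, 10682 and 6188 TPM in MeJA-primed Criollo and 3822, 3307 and 4736 TPM in MeJA-primed Micro-Tom. The 3 genotypes did not overlap, and all pairs were called, with log2 fold changes of 1.15 for Stupicke over Criollo, 1.96 for Stupicke over Micro-Tom and 0.80 for Criollo over Micro-Tom. The 11 kDa LEA protein was called for Stupicke over Micro-Tom (0.77, edgeR adjusted p = 0.040) and not for Stupicke over Criollo (0.73, edgeR adjusted p = 0.081), and Criollo and Micro-Tom overlapped. The Dc3 LEA gene Solyc03g116390.4.1 was called in no comparison.

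Oleosins were ordered otherwise, and Solyc03g112440.1.1, nucleolin and sulfite oxidase had mock means below 1000 TPM in the genotypes where they were lower. All 3 oleosins were lower in Criollo than in Micro-Tom. The largest difference was -2.16 log2 units for Solyc03g112440.1.1 (691, 950 and 597 TPM in MeJA-primed Criollo against 2143, 2643 and 3342 TPM in MeJA-primed Micro-Tom). Between Stupicke and Micro-Tom 0 of the 3 oleosins were called. Nucleolin, a protein of ribosome assembly in the nucleolus, was higher in Stupicke (2424, 2264 and 2466 TPM) and in Criollo (2011, 2108 and 1804 TPM) than in Micro-Tom (956, 885 and 1014 TPM), by 1.75 and 1.36 on the log2 scale. Sulfite oxidase had the same order as Solyc06g048840.3.1, with 1901, 1990 and 2058 TPM in Stupicke, 852, 995 and 813 TPM in Criollo and 706, 616 and 800 TPM in Micro-Tom. The HSC2-like heat shock protein was highest in Criollo, at 4037, 4089 and 4103 TPM against 2399, 2382 and 2434 TPM in Micro-Tom, and the difference for Stupicke over Criollo was -0.37 log2 units.

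**Figure D5:**
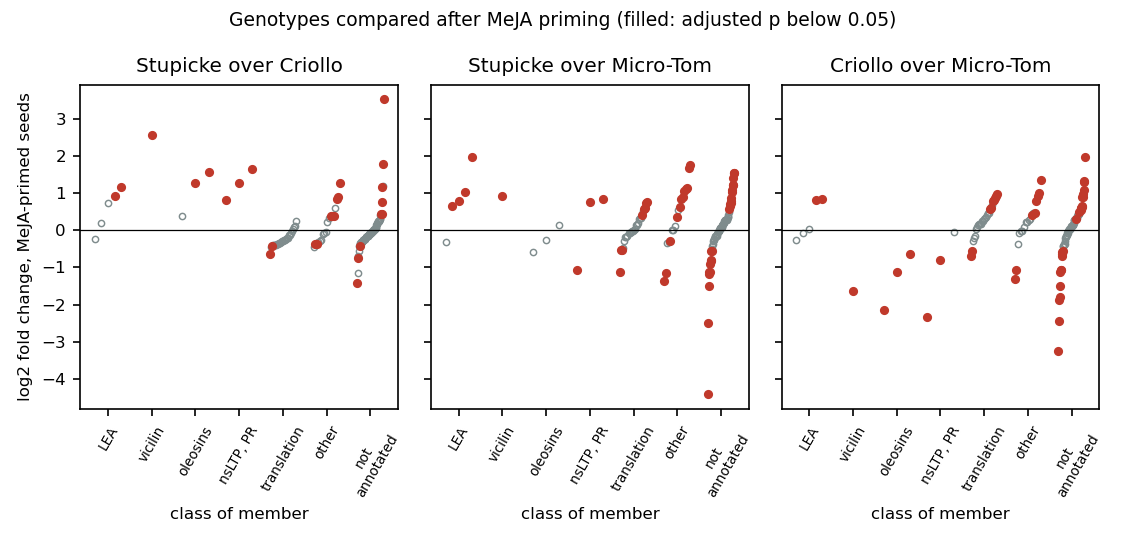
Log2 fold change between genotypes among MeJA-primed seeds from the edgeR fit for all 127 members, by class, for each pair of genotypes (1 circle per gene, filled where the adjusted p was below 0.05). The lowest point is Solyc10g075110.2.1 at -4.41 for Stupicke over Micro-Tom and the highest is Solyc08g080480.3.1 at 3.52 for Stupicke over Criollo.

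The widest differences again lay among undescribed members. Solyc10g075110.2.1 stood at 245, 256 and 69 TPM in MeJA-primed Stupicke, 513, 406 and 501 TPM in MeJA-primed Criollo and 4459, 5311 and 4312 TPM in MeJA-primed Micro-Tom, at -4.41 log2 units for Stupicke over Micro-Tom (SE 0.60). Solyc08g080480.3.1 stood at 2593, 3802 and 3001 TPM in Stupicke, 217, 248 and 439 TPM in Criollo and 2261, 1427 and 1112 TPM in Micro-Tom, at 3.52 for Stupicke over Criollo (SE 0.39). The mock mean of Solyc10g075110.2.1 reached the threshold in Micro-Tom alone and that of Solyc08g080480.3.1 in Stupicke alone, so the direction was favoured by the choice of members and no test is given. Solyc10g075050.2.1 was lower in Stupicke, with 3542, 3985 and 3006 TPM against 9798, 9915 and 10806 TPM in Criollo and 7065, 9219 and 10504 TPM in Micro-Tom. None of these genes was called for MeJA in any genotype.

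The counts between genotypes depended on the scale and on single libraries. For Stupicke over Criollo limma on log2(TPM + 1) called 18 members higher (14.2%) and 34 lower (26.8%), against 20 and 7 by edgeR, on a scale where the median of all genes stood at -0.10 and 7.16% of all genes were called higher and 14.1% lower. For Criollo over Micro-Tom it called 49 higher (38.6%) and 20 lower (15.7%), against 29 and 22 by edgeR, where 15.3% of all genes were called higher and 18.3% lower. Leaving out Micro-Tom mock replicate 3, which is in none of these comparisons but enters the shared spread, gave 26 higher (20.5%, against 17.8% of all genes) and 37 lower (29.1%, against 17.9%) for Stupicke over Criollo. It gave 52 higher (40.9%, against 28.8%) and 29 lower (22.8%, against 28.0%) for Stupicke over Micro-Tom, and 54 higher (42.5%, against 25.9%) and 28 lower (22.0%, against 25.5%) for Criollo over Micro-Tom. The count of 27 for Stupicke over Criollo was 17 without Criollo MeJA replicate 1, 16 without Stupicke MeJA replicate 2 and 17 without Stupicke MeJA replicate 3. Over all genes the calls went from 4466 to 2964, 2957 and 2828 in the same order.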

How the data were processed

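RNA from primed seeds was enriched by the authors for polyadenylated RNA, read as pairs on a BGISEQ-500 sequencer and quantified with Salmon 1.2 against the SL4.0 assembly and ITAG4.0 annotation. The authors deposited estimated counts per gene (expected counts, not normalised) and TPM values, which they scaled within each library. The estimated counts were rounded to whole numbers here. Salmon divides reads between similar genes.

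Groups came from the sample labels. In R 4.3.3, genes kept by filterByExpr were scaled by TMM and tested with edgeR 4.0.16 (quasi-likelihood, 1 mean per group, all 18 libraries, Benjamini-Hochberg adjustment over 19914 genes, called at 0.05). Alternatives were DESeq2 1.42.0, limma 3.58.1 on log2(TPM + 1) and log2(TPM + 0.1), other scalings, filters and fits, and leaving out each library. The tests were tested on simulated data. Intervals are the estimate ± 1.96 SE. The replicates are separate sets of 30 seeds from 1 production of each genotype, so p-values measure the spread between those sets and not between productions.

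The members and the gene lists were chosen with earlier results of these data known. Named members were the 15 with the highest mock mean, the 3 largest called changes each way per comparison without overlap in TPM, the 6 largest mock genotype ratios, the 3 genes on either side of the threshold and the 2 highest of each class, and others are named where a count of 5 or fewer or a class needed them. Described means that the copies used of the study's lists of exudate proteins or MeJA-responsive genes give a description, and classes were assigned by keyword. The columns of fold changes and p-values in those lists were not used. Gene IDs had 0 matches in the RefSeq table given, and sequences were not analysed here.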

Additional observations from a re-analysis of the deposited data

How the results depend on the processing

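For MeJA against mock priming in Criollo, 8 members were called. The count was 19 with only the libraries compared, 5 with a minimum log2 fold change of 1, 4 with limma on either TPM scale, and, with members chosen on all 18 or on the 9 MeJA libraries (both added after seeing the data), 13 and 15. With only the libraries compared 14.2% of the members were higher in Criollo, against 5.39% of all genes, and 0.787% lower, against 4.34%. For Micro-Tom (33 called) the count was 67 with DESeq2, and 58 and 54 with limma on log2(TPM + 1) and log2(TPM + 0.1). DESeq2 called 43.3% of the members lower, against 10.1% of all genes, and 9.45% higher, against 9.91%. Limma on log2(TPM + 1) called 37.0% lower, against 5.51%, and 8.66% higher, against 7.18%. The count was 4 with only the libraries compared and 5 with the minimum fold change, all higher. Those were 3.15% and 3.94% of the members, against 2.86% and 3.29% of all genes. Each of the 26 lower calls was lost under both settings. For Stupicke (0 called) the other memberships gave 1 and 2. For Stupicke over Criollo (27 called) the count was 66 with only the libraries compared (25 higher, 41 lower), 11 with the minimum fold change, and 52 and 53 with limma. With only the libraries compared 19.7% of the members were higher and 32.3% lower, against 17.1% and 17.6% of all genes. With the minimum fold change 7.87% were higher and 0.787% lower, against 4.67% and 5.38%. The minimum fold change gave 24 for Stupicke over Micro-Tom (14 higher, 10 lower) and 19 for Criollo over Micro-Tom (5 higher, 14 lower). Of the 19914 genes tested, 1555 were higher and 2394 lower for Stupicke over Micro-Tom at that minimum. For Criollo over Micro-Tom these were 1421 and 1983. Without the minimum, 29 members were higher and 22 lower for Criollo over Micro-Tom, so the direction with more calls depended on this setting. For the response difference of Stupicke minus Micro-Tom (0 called), DESeq2 gave 5, and limma on either scale and either other membership gave 1, as did either other membership for Stupicke minus Criollo. Leaving out 1 library gave 1 to 19 for Criollo, 13 to 76 for Micro-Tom, 16 to 63 for Stupicke over Criollo, 40 to 81 for Stupicke over Micro-Tom, 37 to 82 for Criollo over Micro-Tom and 0 to 2 for the response of Stupicke minus Micro-Tom. The calls over all genes moved too, between 361 and 1812 for Criollo and between 1620 and 4136 for Micro-Tom. They lay between 2828 and 7224 for Stupicke over Criollo. For Stupicke over Micro-Tom they lay between 7005 and 11463, and for Criollo over Micro-Tom between 6073 and 10380. The cause of these moves was not tested. RLE scaling, no filter and TMM without the members left each of these counts within 1.5 times, and the 75 called changes of named genes kept their sign under each alternative fit, though 188 of the calls tried under other settings were lost. Of 210 log2 fold changes of 35 named members, called or not, 57 took the other sign under at least 1 setting, and 0 of these were called. Vicilin in Stupicke, at -0.11, was among them, at 0.00375 without Stupicke MeJA replicate 1. The number of members was 316 at 500 TPM, 28 at 2000 TPM and 56 at 1000 TPM in every mock library.

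With replicate number as a block, the count in Criollo was 4. No other count moved by over 1.5 times. Same-numbered samples correlated between -0.29 and 0.31 in their deviations from group means, 2 of 18 values were over 0.1, and 4 of 18 samples correlated best with their own number, so the numbers were not taken to pair the samples.

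Mean member shares fell when counted otherwise. As a share of estimated counts they were 21.0%, 17.9% and 17.0% in MeJA-primed and 20.9%, 16.7% and 17.9% in mock-primed Stupicke, Criollo and Micro-Tom, for the members at 2000 TPM 18.7%, 14.1% and 13.4%, and 17.7%, 11% and 11.2%, and for the top 10 members 14.1%, 9.52% and 8.77%, and 13.0%, 6.47% and 6.37%. On log2(TPM + 1) the median of all genes was displaced by -0.12 for MeJA in Criollo, -0.10 for Stupicke over Criollo, -0.11 for Stupicke over Micro-Tom, and 0.12 and -0.21 for the response differences of Stupicke minus Criollo and Criollo minus Micro-Tom.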

Other observations

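Of the genes that reached a mean of 1000 TPM over the 9 MeJA-primed libraries, 15 were not members by the mock rule. The furthest apart were 2-oxoglutarate-dependent dioxygenase 2, a class of enzymes that oxidise small molecules, with 3408 TPM in MeJA-primed and 983 TPM in mock-primed libraries on average, and the peroxidase Solyc04g071890.3.1, with 1150 TPM and 138 TPM. S-adenosylmethionine decarboxylase, of polyamine synthesis, averaged 1748 TPM in MeJA-primed and 891 TPM in mock-primed libraries, and 1-Cys peroxiredoxin, an antioxidant protein of seeds, 1430 TPM and 873 TPM. Malate synthase, of the glyoxylate cycle, averaged 1034 TPM and 801 TPM. These 15 genes were picked by their MeJA level, so the direction is not a test.

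In the other direction 28 members had a MeJA mean under 1000 TPM. Mock replicate 3 of Micro-Tom had 173 genes at 1000 TPM or more, against 109 to 135 in the other libraries.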
